A study of Homo sapiens with 4 samples.

Results

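The genes described here are the kinases of the mitogen-activated protein kinase (MAPK) cascade, compared between A549 cell clusters with and without knockdown of DUSP23. They were taken as every protein-coding gene whose symbol begins with MAPK, MAP2K, MAP3K, MAP4K or MAPKAPK followed by a number. This gave 47 genes of the 16371 in the table, of which 42 encode kinases: 10 MAPKs, 7 MAP2Ks, 17 MAP3Ks, 5 MAP4Ks and 3 MAPKAPKs. The other 5 carry such a name without encoding a kinase of the cascade. A549 is a human lung adenocarcinoma cell line. The shDUSP23 group (2 libraries) carried a short hairpin RNA against DUSP23, a small dual-specificity phosphatase, and the shMock group (2 libraries) carried a control construct and is labelled wild type. Both groups were grown as clusters, and the libraries of each group are numbered 1 and 2. Separate cultures are not mentioned in the labels. The p-values therefore cover no more than the spread among these 4 libraries, which may be technical.

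MAPK cascades pass a signal along a chain of kinases, each of which phosphorylates the next. A MAP3K phosphorylates a MAP2K on serine or threonine, the MAP2K phosphorylates a MAPK on a threonine and a tyrosine of its activation loop, and the MAPK acts on transcription factors and on further kinases such as the MAPKAPKs. MAP4Ks lie above some of the MAP3Ks. The best known branches end in the ERK kinases, which relay growth factor and RAS signals, and in the JNK and p38 kinases, which relay stress and cytokine signals. Because the cascade works by phosphorylation, transcript levels report how much of each kinase's message was present and not how active the kinase was. In bulk RNA, fewer cells that use a gene and less of its RNA per cell cannot be told apart.

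The 4 libraries held 26997400 and 42236500 fragments in shDUSP23 and 21274700 and 25243700 fragments in shMock, as recovered from the steps between low FPKM values (fragment values scaled by transcript length and library total). The target of the hairpin was low in both shDUSP23 libraries: DUSP23 (chr1:159780960-159782543, GRCh38) had 1.71 and 2.71 FPKM in the shDUSP23 libraries, against 29.96 and 35.9 FPKM in the shMock libraries, 14.9-fold lower by the group means (log2 fold change -3.64, SE 0.22, limma adjusted p = 3.12e-05). Of 13691 genes tested with limma on log2(FPKM + 0.5), 45.3% passed a threshold of 0.05 on the Benjamini-Hochberg adjusted p, with 23.1% of the tested genes called higher and 22.2% called lower in shDUSP23. The 6202 genes called became 4038 without shMock library 1 and 3464 without shMock library 2. The median log2 fold change was 0.03 over all tested genes, and it was 0.34 when the libraries were scaled to equal FPKM sums. With equal sums 50.7% of genes were called, 38.4% higher and 12.3% lower, so the direction of small changes depended on the scaling. The FPKM sums were 438604 and 446982 in shDUSP23 against 540163 and 578361 in shMock, and mitochondrial genes held 8.12% and 7.97% of the sum in shDUSP23 against 12.3% and 13.1% in shMock. Both moved with the group. In 75.5% of the tested genes the values of the groups did not overlap. Keratins of epithelial cells were abundant in all libraries (KRT8 at 917 and 999 FPKM in shDUSP23 against 1144 and 1153 FPKM in shMock), no marker listed for endothelium had a row here, and of 5 leukocyte markers only CD14 had one, at 0.983 and 0.995 FPKM in shDUSP23 against 4.68 and 8.005 FPKM in shMock. The summed epithelial markers were 1634 and 1716 FPKM in shDUSP23 against 2154 and 2111 FPKM in shMock, and CDH1, EPCAM and KRT18 of these 5 markers fell. With equal sums only CDH1 was still called (1 of 5). Of 7 alveolar type II markers listed, 3 had a row and 2 were tested. LAMP3 rose with 8.85 and 5.90 FPKM in shDUSP23 against 4.45 and 2.47 FPKM in shMock (log2 fold change 1.01, SE 0.30, limma adjusted p = 0.0241), and ABCA3 was not called. Of 5 fibroblast markers 4 had a row and 1 was tested. This was COL1A1, with 3.91 and 4.66 FPKM in shDUSP23 against 2.93 and 2.48 FPKM in shMock. It was not called (limma adjusted p = 0.0758), but was called higher with equal sums (0.87, adjusted p = 0.0167). The part of the mitochondrial and marker differences in the kinase results was not tested.

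Of the 42 kinases, 40 passed the filter of a mean of at least 1 FPKM. Among these 12 were called higher and 7 lower in shDUSP23 and 21 were not called, which makes 47.5% called against 45.3% of all tested genes. Their median log2 fold change was 0.05, beside 0.03 for all genes. The cascade kinases were thus called about as often as genes in general, with calls in both directions. MAP4Ks had the highest median, 0.72, with 3 of 4 tested members higher and 0 lower. MAPKs had 3 of 9 higher and 1 lower (median 0.19), MAP2Ks 2 of 7 higher and 1 lower (median -0.02), MAP3Ks 3 of 17 higher and 4 lower (median -0.05), and MAPKAPKs 1 of 3 higher and 1 lower (median -0.30). With equal FPKM sums the kinases split into 17 higher and 4 lower of 40, with a median of 0.38. Over all genes 38.4% were then higher and 12.3% lower, with a median of 0.34, so the kinases moved much as the table did. Without shMock library 2 they split into 7 higher and 5 lower. MAPK13 and MAP4K1 were below the filter.

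**Figure D1:**
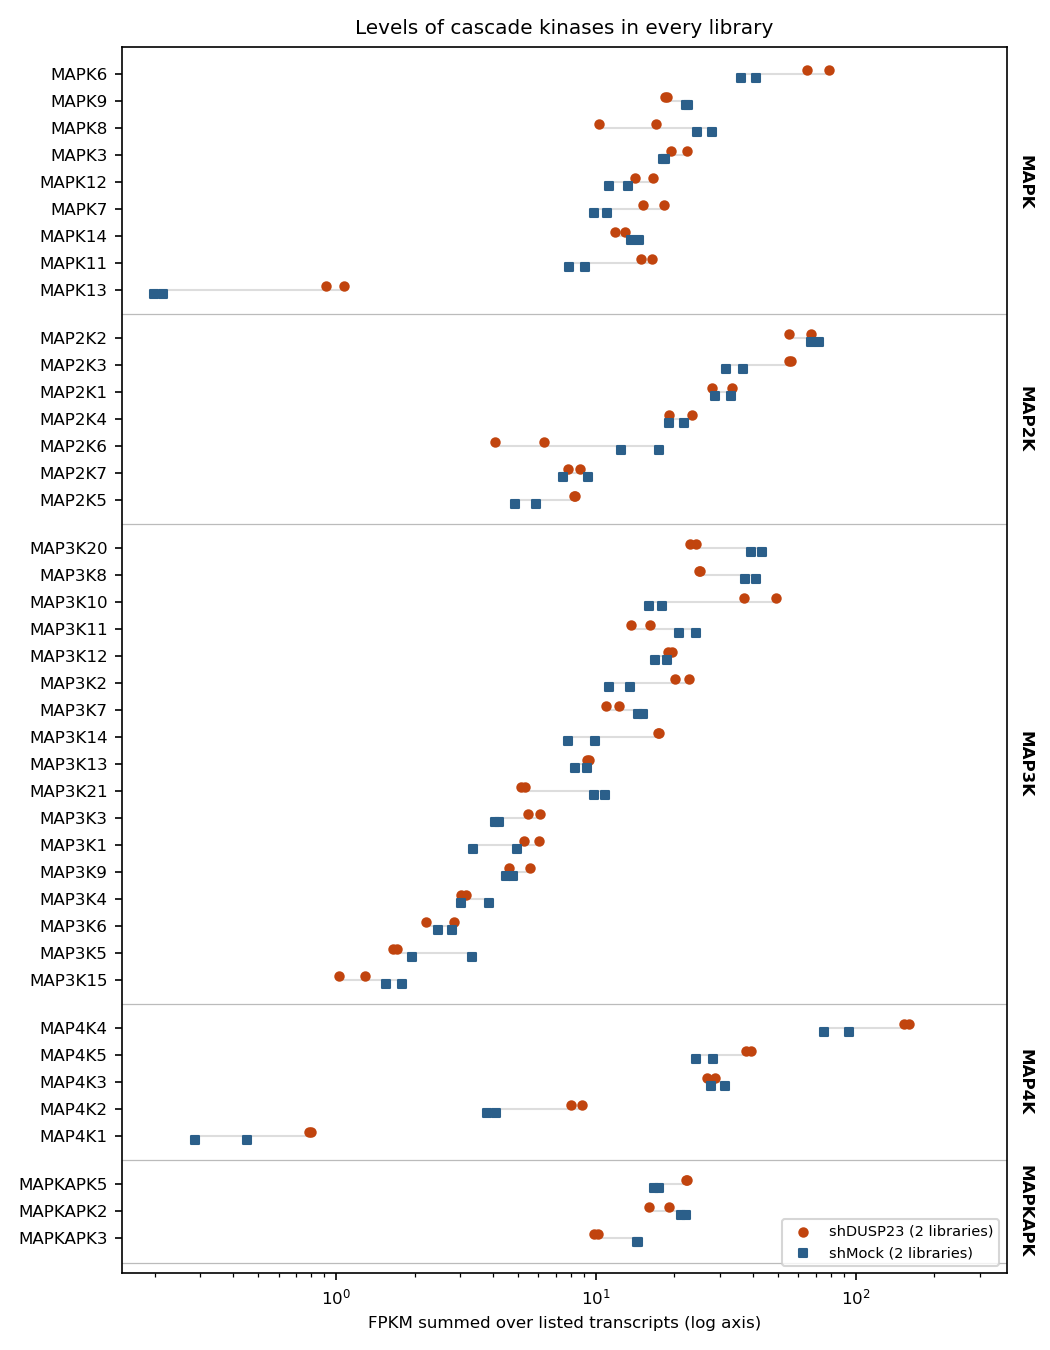
FPKM of the cascade kinases in the 2 shDUSP23 and the 2 shMock libraries, on a log axis and grouped by tier, each point being 1 library. MAP4K4 was the most abundant kinase, at 159.7 and 153.6 FPKM in shDUSP23 and 94.3 and 75.5 FPKM in shMock, and MAPK13 and MAP4K1 lay around or below 1 FPKM.

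**Figure D2:**
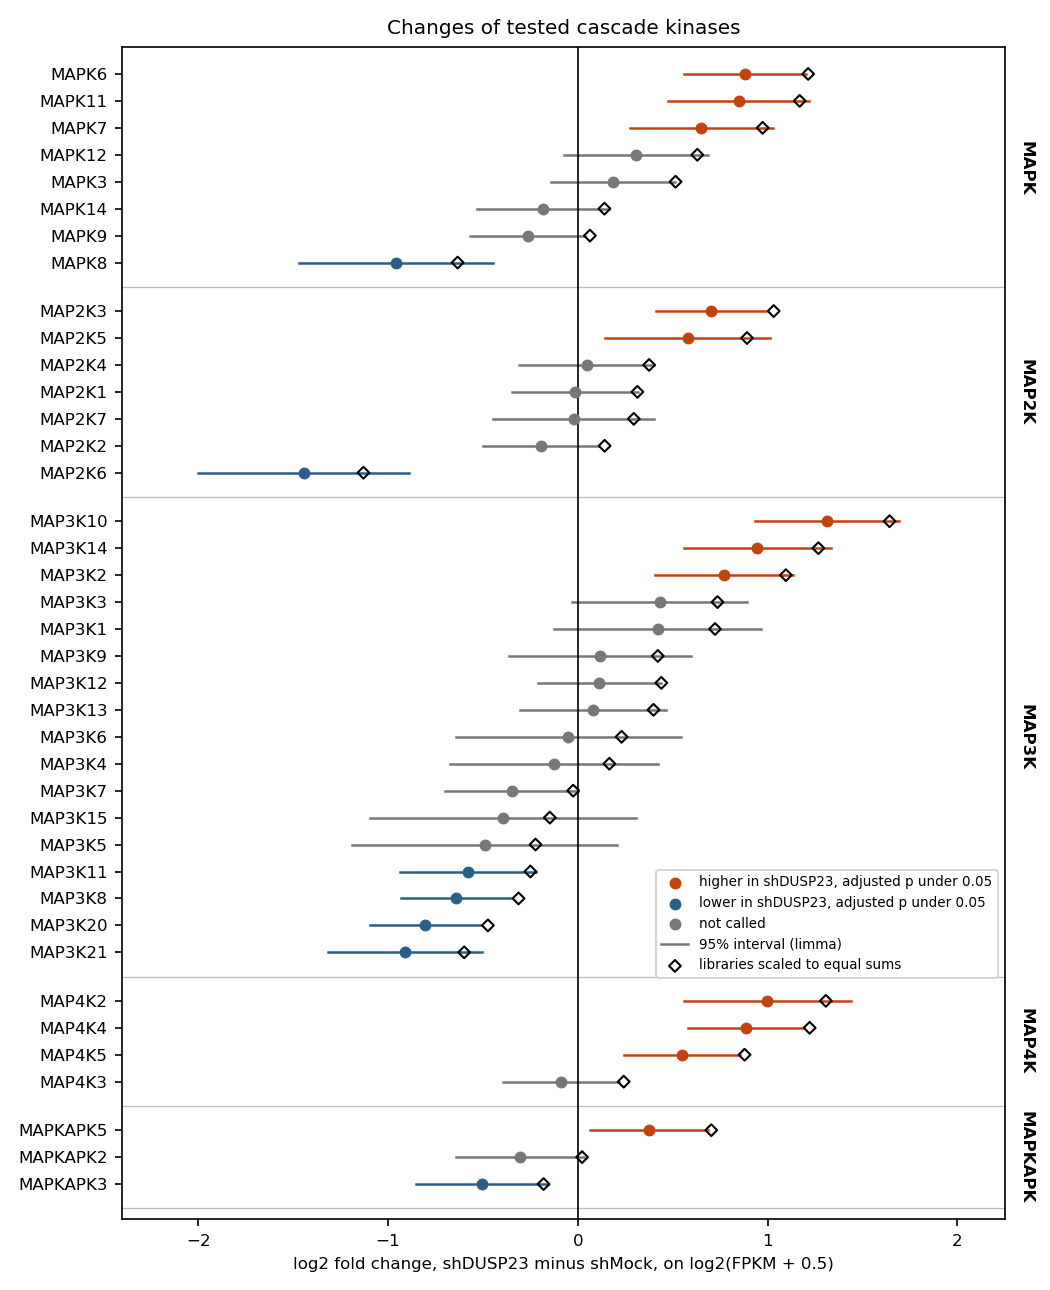
Log2 fold change of tested kinases, shDUSP23 minus shMock, with its 95% interval from limma, coloured by call and grouped by tier, with the value after scaling to equal FPKM sums as an open diamond. MAP3K10 had the highest value (1.31) and MAP2K6 the lowest (-1.44), and scaling to equal sums moved every plotted kinase upward.

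The MAPKs themselves are recognised by the short motif that their MAP2Ks phosphorylate. The coding bases around that motif are shown for 8 of the MAPKs described below, read from GENCODE 29 transcripts (GRCh38), with the motif codons in capitals. The capitals encode threonine, any residue and tyrosine in the conventional MAPKs, where the middle residue is glutamate in the ERKs, proline in the JNKs and glycine in the p38 kinases. In MAPK6, an atypical MAPK, they encode serine, glutamate and glycine, with no tyrosine.
MAPK3: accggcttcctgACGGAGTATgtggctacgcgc
MAPK7: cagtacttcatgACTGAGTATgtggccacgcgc
MAPK8: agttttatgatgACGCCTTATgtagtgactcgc
MAPK9: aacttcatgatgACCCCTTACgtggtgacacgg
MAPK14: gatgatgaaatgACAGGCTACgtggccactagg
MAPK11: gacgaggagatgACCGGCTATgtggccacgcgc
MAPK12: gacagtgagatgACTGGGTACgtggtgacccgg
MAPK6: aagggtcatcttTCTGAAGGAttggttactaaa

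MAPK6, which encodes ERK3 and carries that atypical motif, was the MAPK with the clearest rise (chr15:52019209-52067375). It had 64.9 and 79.1 FPKM in the shDUSP23 libraries, against 36.2 and 41.3 FPKM in the shMock libraries. Both shDUSP23 values lay above both shMock values, and the means differed 1.86-fold (log2 fold change 0.88, SE 0.14, limma adjusted p = 0.00151). MAPK11 (chr22:50263713-50270767), which encodes p38 beta, had 14.8 and 16.4 FPKM in the shDUSP23 libraries, against 9.04 and 7.86 FPKM in the shMock libraries. It was 1.85-fold higher by the means without overlap (log2 fold change 0.85, SE 0.16, limma adjusted p = 0.00368). MAPK7, which encodes ERK5, the kinase of a separate growth and shear-stress branch, had 15.2 and 18.2 FPKM in the shDUSP23 libraries, against 9.84 and 11.01 FPKM in the shMock libraries (log2 fold change 0.65, SE 0.16, limma adjusted p = 0.0127). All 4 values were ordered by group here too, but the rise rested on transcripts annotated as noncoding, which summed to 9.99 and 11.5 FPKM in shDUSP23 and 5.43 and 5.88 FPKM in shMock. The protein-coding transcripts of MAPK7 summed to 5.18 and 6.73 FPKM in shDUSP23 and 4.42 and 5.13 FPKM in shMock, and with coding transcripts alone the call was lost (log2 fold change 0.28, adjusted p = 0.306, limma). The call was also lost with a correction for GC content and length (0.39, adjusted p = 0.0598; adjusted p = 0.0546 with the replicate block added), without shMock library 1 (adjusted p = 0.0920) and without shMock library 2 (adjusted p = 0.0508). Its 190-base overlap with B9D1 lies on the opposite strand, and B9D1 was lower.

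MAPK8, which encodes JNK1, was the MAPK that fell (chr10:48306639-48439360). Its levels were 17.01 and 10.2 FPKM in the shDUSP23 libraries, against 28.0 and 24.4 FPKM in the shMock libraries. The shDUSP23 values were the lower ones, though they differed from each other more than the shMock values did (log2 fold change -0.96, SE 0.22, limma adjusted p = 0.00882). Here as well the noncoding transcripts carried the difference, with 7.11 and 6.37 FPKM in shDUSP23 against 18.7 and 15.5 FPKM in shMock. The coding transcripts had 9.90 and 3.85 FPKM in shDUSP23 and 9.28 and 8.90 FPKM in shMock, so shDUSP23 library 2 alone was low and library 1 was above both controls. With coding transcripts alone MAPK8 was not called (log2 fold change -0.51, adjusted p = 0.290, limma). It was not called with limma-voom on recovered fragments (-0.40, adjusted p = 0.0689) or without shMock library 1 (adjusted p = 0.0757).

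Other MAPKs, MAPK3, MAPK9 and MAPK14 among them, were not called. MAPK3 (ERK1) had 19.4 and 22.4 FPKM in shDUSP23 against 18.0 and 18.4 FPKM in shMock, a log2 fold change of 0.19 (95% interval -0.14 to 0.51, limma adjusted p = 0.311). MAPK3 was slightly above the controls in both shDUSP23 libraries, and after scaling to equal sums it was called higher (0.52, adjusted p = 0.0205). MAPK14 (p38 alpha) had 12.9 and 11.8 FPKM in shDUSP23 against 13.6 and 14.6 FPKM in shMock, a log2 fold change of -0.18 (95% interval -0.53 to 0.17, limma adjusted p = 0.353). MAPK9 (JNK2) had 18.5 and 18.7 FPKM in shDUSP23 against 22.3 and 22.5 FPKM in shMock, a log2 fold change of -0.26 (95% interval -0.57 to 0.04, limma adjusted p = 0.137). Both were lower in each shDUSP23 library without passing the test, and with equal sums their values turned positive (0.14, adjusted p = 0.514 for MAPK14 and 0.06, adjusted p = 0.746 for MAPK9). MAPK12 (p38 gamma) had 14.1 and 16.5 FPKM in shDUSP23 against 11.3 and 13.3 FPKM in shMock and was called only with equal sums (0.63, adjusted p = 0.0125); it overlaps HDAC10 on the same strand, so some of its reads may be shared. MAPK13 (p38 delta), below the filter, had 0.915 and 1.07 FPKM in the shDUSP23 libraries, against 0.216 and 0.198 FPKM in the shMock libraries, and the shMock values stood for 9 and 31 fragments.

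Among the MAP2Ks, a pair of close relatives parted. MAP2K3 and MAP2K6 encode MKK3 and MKK6, which both activate p38 kinases, and they moved in opposite directions. MAP2K6 (chr17:69414697-69553865) had 4.10 and 6.31 FPKM in the shDUSP23 libraries, against 12.4 and 17.4 FPKM in the shMock libraries. Every shDUSP23 value was below every shMock value, a 2.87-fold lower mean (log2 fold change -1.44, SE 0.24, limma adjusted p = 0.00196). MAP2K3 (chr17:21284672-21315232), the more abundant of the pair, had 55.1 and 56.3 FPKM in the shDUSP23 libraries, against 36.6 and 31.7 FPKM in the shMock libraries. It was 1.63-fold higher by the means (log2 fold change 0.70, SE 0.13, limma adjusted p = 0.00276). Both calls and both directions were kept under each alternative processing and with each library left out, so their opposite movement did not depend on the scaling.

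MAP2K5, which encodes MEK5, the activator of ERK5, was 1.53-fold higher by the means, with 8.31 and 8.21 FPKM in shDUSP23 against 5.89 and 4.87 FPKM in shMock (log2 fold change 0.58, SE 0.19, limma adjusted p = 0.0360). This call was close to the threshold and was lost with any 1 library left out (adjusted p 0.0546 to 0.226), without the filter (adjusted p = 0.0523), with quantile normalization (adjusted p = 0.0524) and with a correction for GC content and length (adjusted p = 0.0512). MAP2K1 and MAP2K2, which encode MEK1 and MEK2, the activators of the ERK branch and the targets of clinical MEK inhibitors, were abundant and not called. MAP2K1 had 33.2 and 28.0 FPKM in shDUSP23 against 33.1 and 28.7 FPKM in shMock, a log2 fold change of -0.02 (95% interval -0.35 to 0.32, limma adjusted p = 0.936). MAP2K2 had 55.2 and 67.4 FPKM in shDUSP23 against 72.4 and 67.2 FPKM in shMock, a log2 fold change of -0.19 (95% interval -0.50 to 0.11, limma adjusted p = 0.269). In both genes the groups overlapped; a correction for GC content and length, however, called MAP2K2 lower (-0.42, adjusted p = 0.0192). MAP2K4 and MAP2K7, which encode the JNK activators MKK4 and MKK7, were not called either. MAP2K4 had 23.4 and 19.1 FPKM in shDUSP23 against 21.8 and 19.2 FPKM in shMock (log2 fold change 0.05, SE 0.16, limma adjusted p = 0.820). MAP2K7 had 7.81 and 8.66 FPKM in shDUSP23 against 7.49 and 9.32 FPKM in shMock (log2 fold change -0.02, SE 0.19, limma adjusted p = 0.933). Neither gene separated the groups.

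MAP3Ks, the entry kinases, were the largest tier and the most mixed. The mixed lineage kinases show this within a single family. MAP3K10 (MLK2; chr19:40191426-40215575), a JNK-pathway kinase, had 37.1 and 49.4 FPKM in the shDUSP23 libraries, against 15.98 and 18.0 FPKM in the shMock libraries. Its mean was 2.55-fold higher (log2 fold change 1.31, SE 0.17, limma adjusted p = 4.92e-04). MAP3K21 (MLK4; chr1:233327724-233385148) went the other way, with 5.15 and 5.33 FPKM in the shDUSP23 libraries, against 10.8 and 9.82 FPKM in the shMock libraries, 1.97-fold lower (log2 fold change -0.91, SE 0.18, limma adjusted p = 0.00385). MAP3K11 (MLK3) also fell, with 16.2 and 13.6 FPKM in shDUSP23 against 20.8 and 24.1 FPKM in shMock (log2 fold change -0.58, SE 0.16, limma adjusted p = 0.0173), but with equal sums it was not called (-0.25, adjusted p = 0.239), nor with limma-voom on recovered fragments (-0.23, adjusted p = 0.176), without shDUSP23 library 2 (adjusted p = 0.0525) or shMock library 2 (adjusted p = 0.144). MAP3K9 (MLK1) was not called, with 4.62 and 5.57 FPKM in shDUSP23 against 4.79 and 4.49 FPKM in shMock.

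MAP3K20, which encodes ZAK, was lower (chr2:173075714-173268015), mostly through the transcript of its short form, described below. Summed over its transcripts, MAP3K20 had 24.2 and 22.9 FPKM in the shDUSP23 libraries, against 43.4 and 39.6 FPKM in the shMock libraries. The groups were far apart relative to the spread within each (log2 fold change -0.80, SE 0.13, limma adjusted p = 0.00150). MAP3K8 encodes TPL2, which activates MEK1 and MEK2 downstream of inflammatory receptors, and it had 25.1 and 24.9 FPKM in shDUSP23 against 41.3 and 37.4 FPKM in shMock. It fell (log2 fold change -0.64, SE 0.13, limma adjusted p = 0.00416), and with equal sums the call was lost (-0.31, adjusted p = 0.105).

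MAP3K14, which encodes NIK, the kinase of the noncanonical NF-kappaB pathway, was higher (chr17:45263119-45317029). It had 17.3 and 17.5 FPKM in the shDUSP23 libraries, against 9.91 and 7.82 FPKM in the shMock libraries, 1.97-fold higher by the means (log2 fold change 0.95, SE 0.17, limma adjusted p = 0.00257). The antisense gene MAP3K14-AS1 overlaps it and had 45.02 and 46.1 FPKM in shDUSP23 against 30.9 and 28.0 FPKM in shMock. It was higher as well, and since the use of strand in counting is not given in the sources used here, reads of the pair cannot be told apart. MAP3K2, which encodes MEKK2, an activator of MEK5, had 20.1 and 22.9 FPKM in the shDUSP23 libraries, against 13.5 and 11.3 FPKM in the shMock libraries (log2 fold change 0.77, SE 0.16, limma adjusted p = 0.00505). Its groups did not overlap; the noncoding MAP3K2-DT, which overlaps it on the other strand, was also higher. Without shMock library 2 MAP3K2 missed the threshold (adjusted p = 0.0534).

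The other 9 MAP3Ks beside MAP3K9 were not called. They were MAP3K1, MAP3K3, MAP3K4, MAP3K5, MAP3K6, MAP3K7, MAP3K12, MAP3K13 and MAP3K15, with log2 fold changes between -0.49 for MAP3K5 (ASK1, a redox-sensitive kinase) and 0.43 for MAP3K3 (MEKK3). With equal sums MAP3K1, MAP3K3 and MAP3K12 were called higher. Limma-voom on recovered fragments also called MAP3K1 (0.63, adjusted p = 0.0295) and MAP3K3 (0.79, adjusted p = 0.0147) higher. MAP3K3 overlaps LIMD2 by 418 bases on the other strand, and LIMD2 was higher. MAP3K7, which encodes TAK1, the kinase that serves TNF, interleukin-1 and TGF-beta receptors, had 10.9 and 12.2 FPKM in shDUSP23 against 15.1 and 14.5 FPKM in shMock. Both shDUSP23 values were below the controls without passing the test (log2 fold change -0.35, 95% interval -0.70 to 0.00226, limma adjusted p = 0.0951), and its transcripts are described below.

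MAP4Ks were higher in shDUSP23 in 3 of the 4 tested members, and the tier's summed level was 236 and 228 FPKM in shDUSP23 against 158 and 132 FPKM in shMock. MAP4K4 (HGK; chr2:101697703-101894689), a kinase of the Ste20 family known for roles in cell migration, made up most of that sum. It had 159.7 and 154 FPKM in the shDUSP23 libraries, against 94.3 and 75.5 FPKM in the shMock libraries, 1.84-fold higher by the means (log2 fold change 0.89, SE 0.13, limma adjusted p = 0.00113). MAP4K2 (chr11:64784918-64803241) had 8.02 and 8.82 FPKM in the shDUSP23 libraries, against 3.82 and 4.10 FPKM in the shMock libraries, and its mean was 2.13-fold higher (log2 fold change 0.999, SE 0.19, limma adjusted p = 0.00363). MAP4K5 (KHS1) had 39.3 and 37.7 FPKM in shDUSP23 against 28.2 and 24.2 FPKM in shMock (log2 fold change 0.55, SE 0.13, limma adjusted p = 0.0107). No shDUSP23 value of these 3 kinases overlapped a shMock value, as in 75.5% of all tested genes and in 30 of the 40 tested kinases. MAP4K5 lost its call without shMock library 2 (log2 fold change 0.44). MAP4K3 (GLK), a kinase linked to amino acid sensing, had 28.7 and 26.8 FPKM in shDUSP23 against 31.4 and 27.7 FPKM in shMock (log2 fold change -0.09, 95% interval -0.39 to 0.22, limma adjusted p = 0.617) and did not separate the groups. MAP4K1 (HPK1), mainly known from blood cells and below the filter, had 0.788 and 0.801 FPKM in shDUSP23 against 0.286 and 0.452 FPKM in shMock.

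Below the MAPKs, the MAPKAPKs showed small differences. MAPKAPK3 (MK3), a p38 substrate that acts on mRNA stability, had 10.2 and 9.79 FPKM in shDUSP23 against 14.3 and 14.4 FPKM in shMock (log2 fold change -0.50, SE 0.15, limma adjusted p = 0.0267). It fell, but was not called with equal sums (-0.18, adjusted p = 0.411), with limma-voom on recovered fragments (-0.36, adjusted p = 0.0876) or without shDUSP23 library 2 (adjusted p = 0.0540), shMock library 1 (adjusted p = 0.123) or shMock library 2 (adjusted p = 0.142). MAPKAPK5 (MK5), the partner kinase of ERK3, had 22.1 and 22.4 FPKM in shDUSP23 against 17.4 and 16.7 FPKM in shMock (log2 fold change 0.38, SE 0.14, limma adjusted p = 0.0499), just past the threshold, and lost its call with any 1 library left out (adjusted p 0.0829 to 0.213). It was not called with coding transcripts alone (0.21, adjusted p = 0.241), with limma-voom (0.21, adjusted p = 0.241), or under 5 other alternatives, with adjusted p up to 0.0843 in those. MAPKAPK2 (MK2) had 16.03 and 19.0 FPKM in shDUSP23 against 22.1 and 21.2 FPKM in shMock (log2 fold change -0.30, 95% interval -0.64 to 0.03, limma adjusted p = 0.122); with a correction for GC content and length it was called lower (-0.62, adjusted p = 0.00588).

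Of the 5 genes named after a MAPK without being one, MAPK8IP1 alone was called. It encodes JIP1, a scaffold that holds JNK with its upstream kinases, and it had 1.31 and 1.45 FPKM in the shDUSP23 libraries, against 3.74 and 3.57 FPKM in the shMock libraries. This was 2.65-fold lower (log2 fold change -1.14, SE 0.26, limma adjusted p = 0.00741), a call lost without shMock library 1 (adjusted p = 0.0822) or shMock library 2 (adjusted p = 0.0760). MAPK8IP2, MAPK8IP3, MAPK1IP1L and MAP3K7CL were not called, with log2 fold changes from -0.44 to 0.25. Without shDUSP23 library 2 MAP3K7CL was called lower (-1.34, adjusted p = 0.0105).

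Read by branch, MAP2K1, MAP2K2 and MAPK3 of the ERK chain were not called under the deposited scaling. MAP3K8, which activates MEK1 and MEK2, was called lower, a call lost with equal sums. In the ERK5 chain, MAP3K2, MAP2K5 and MAPK7 were each called higher. Each of these lost its call in at least 1 alternative or with a library left out. MAP3K3 of that chain was not called (log2 fold change 0.43, limma adjusted p = 0.113). It was called higher with equal sums and with limma-voom on recovered fragments. The p38 chain held the fall of MAP2K6 beside the rises of MAP2K3 and MAPK11. MAPK12 and MAPK14 of that chain were not called under the deposited scaling. In the JNK chain MAP2K4, MAP2K7 and MAPK9 were not called, and MAPK8 fell as described. Of the mixed lineage kinases above it, MAP3K10, a JNK-pathway kinase, rose, while MAP3K21 and MAP3K11 fell as described. The scaffold gene MAPK8IP1 fell, a call lost without shMock library 1 or shMock library 2. SPAG9, a JNK scaffold gene listed below, rose.

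**Figure D3:**
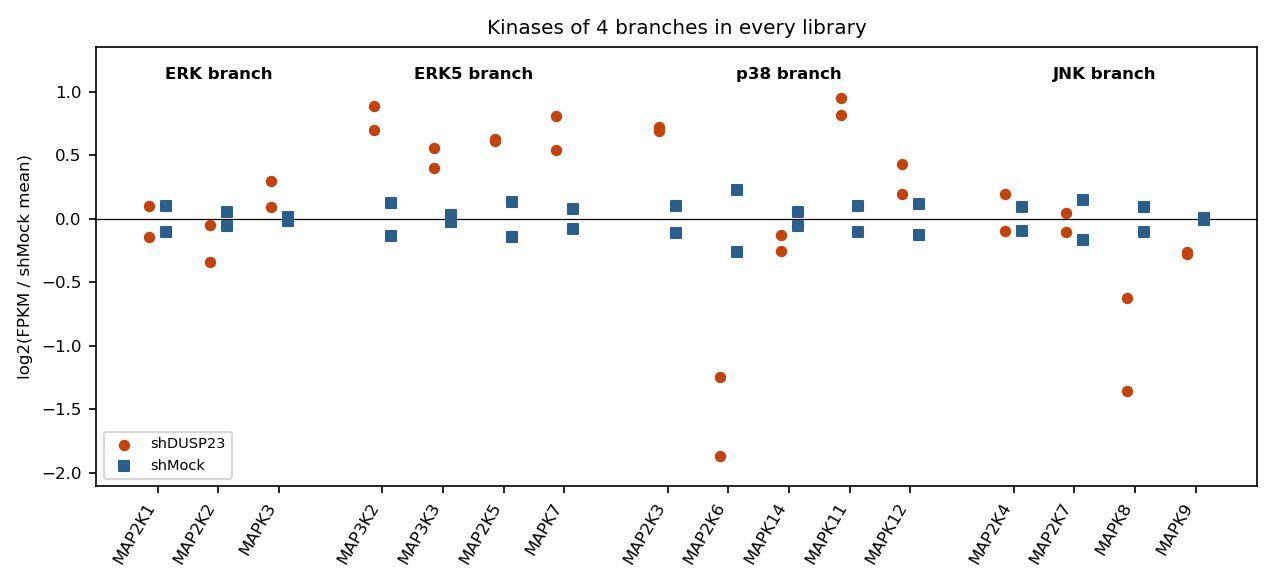
Levels of kinases of the ERK, ERK5, p38 and JNK branches in every library, as log2 of its FPKM over the shMock mean, with shDUSP23 left of shMock. MAP2K3 and MAP2K6 lie on opposite sides within the p38 branch, while MAP2K1 and MAP2K2 show overlapping groups in the ERK branch.

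Of the 19 called kinases, 10 kept their call and direction under 14 alternative processings and with each of the 4 libraries left out. These were MAPK6, MAPK11, MAP2K3, MAP3K10, MAP3K14, MAP4K2 and MAP4K4, all higher, and MAP2K6, MAP3K20 and MAP3K21, all lower. The same share among all called genes was not computed, so 10 of 19 cannot be set against genes in general. The kinases called higher had a median GC content of 55.4% and those called lower 43.8%, beside 54.1% and 45.7% for all genes called higher and lower. GC content thus moved with the direction of change among the kinases as it did across the table. With each library corrected for GC content and length, 10 kinases were higher and 9 lower.

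Values were also given for 207 transcripts of the 47 genes, of which 144 passed the filter. Of the 144, 1 was called higher and 1 lower (1.39%), and each lost its call with any library left out (adjusted p 0.0881 to 0.308 for the higher and 0.0881 to 0.290 for the lower). With the replicate number as a block 0 were called (adjusted p = 0.0779 for the higher and 0.0747 for the lower). At an unadjusted p under 0.05 there were 34. With equal sums 6 were called, all higher, but that scaling moved fold changes upward across all genes. The shares of all transcripts under these settings were not computed, so neither count can be set against transcripts in general. Among all 37453 tested transcripts 4.15% were called in the main fit, 1.7% higher and 2.45% lower. The transcript called higher was ENST00000253055, the main coding transcript of MAP3K10, with 24.7 and 34.3 FPKM in the shDUSP23 libraries, against 9.62 and 9.20 FPKM in the shMock libraries (log2 fold change 1.58, SE 0.21, limma adjusted p = 0.0412).

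The transcript called lower was ENST00000338983 of MAP3K20. It encodes the short form of ZAK and shares 10 of its 11 coding exons with the long form, encoded by ENST00000375213 and ENST00000409176, which end differently. The short form's own stretch covers 378 coding bases and the long form's 1413, and these stretches, with the noncoding ends, are what separates the transcripts. Their first 45 own coding bases, from GENCODE 29, lie at chr2:173221150-173221194 for the short form and at chr2:173229689-173229733 for the long form, both on the plus strand. They are shown because the difference between the forms starts there.
MAP3K20 short form: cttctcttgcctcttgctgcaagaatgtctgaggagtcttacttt
MAP3K20 long form: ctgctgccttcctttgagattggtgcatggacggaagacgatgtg
The short form had 10.5 and 10.1 FPKM in the shDUSP23 libraries, against 27.8 and 25.002 FPKM in the shMock libraries (log2 fold change -1.31, SE 0.15, limma adjusted p = 0.0344). Of the long-form transcripts, ENST00000375213 had 7.24 and 7.54 FPKM in shDUSP23 against 8.28 and 7.88 FPKM in shMock and ENST00000409176 had 4.77 and 3.53 FPKM in shDUSP23 against 5.76 and 4.94 FPKM in shMock, and neither was called. The short form made up 46.8% and 47.7% of the short and long forms together in shDUSP23, against 66.4% and 66.1% in shMock. The fall of the gene was thus mostly a fall of its short form. With equal sums the short form missed the threshold (-0.99, limma adjusted p = 0.0544).

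MAP3K7 differed between the groups in the balance of transcripts, though no single transcript of it was called. ENST00000369329 contains an 81-base cassette exon, coding exon 12 of 17, that ENST00000369332 lacks. It lies at chr6:90544552-90544632 on the minus strand, and its bases are a multiple of a codon, so both forms keep the reading frame. It is shown as the only coding stretch that tells the forms apart.
MAP3K7 exon 12: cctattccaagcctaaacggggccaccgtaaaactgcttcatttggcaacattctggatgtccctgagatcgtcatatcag
The form with the exon had 6.61 and 6.61 FPKM in the shDUSP23 libraries, against 4.42 and 3.44 FPKM in the shMock libraries (log2 fold change 0.69, limma adjusted p = 0.175). The form without it had 0.491 and 1.41 FPKM in the shDUSP23 libraries, against 5.45 and 6.61 FPKM in the shMock libraries (log2 fold change -2.24, limma adjusted p = 0.0719). The form with the exon held 93.1% and 82.4% of the pair in shDUSP23, against 44.8% and 34.2% in shMock. Over all 4 listed transcripts that span the site, the share with the exon was 75.9% and 69.1% in shDUSP23 and 37.3% and 29.8% in shMock. The shares did not overlap, and with 2 libraries against 2 the smallest p an exact permutation test can give is 0.333, so they are given as a description.

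MAPK9 has a pair of alternative exons of 72 bases each, known from the JNK genes, that encode versions of the same part of the kinase domain. ENST00000393360 uses the exon at chr5:180247439-180247510 and ENST00000455781 the one at chr5:180247855-180247926, both on the minus strand. They are called first and second here by order of listing. In the direction of transcription the second comes before the first. The exons are 63.9% identical, and the 26 bases that differ are in capitals. The last coding exons of these transcripts differ as well.
MAPK9 first exon: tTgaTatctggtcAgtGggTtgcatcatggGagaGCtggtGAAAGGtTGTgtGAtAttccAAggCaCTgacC
MAPK9 second exon: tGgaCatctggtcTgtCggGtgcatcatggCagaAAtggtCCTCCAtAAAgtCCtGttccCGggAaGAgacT
ENST00000393360, with the first exon, had 2.66 and 3.08 FPKM in the shDUSP23 libraries, against 8.27 and 7.57 FPKM in the shMock libraries (log2 fold change -1.32, limma adjusted p = 0.0606). ENST00000455781, with the second, had 1.79 and 3.79 FPKM in the shDUSP23 libraries, against 1.117 and 0.219 FPKM in the shMock libraries (log2 fold change 1.54, limma adjusted p = 0.233). Neither was called. The transcript with the first exon held 59.9% and 44.8% of the pair in shDUSP23, against 88.1% and 97.2% in shMock. Another transcript, ENST00000397072, also holds the first exon, and over the 3 transcripts the share of the first exon was 83.4% and 74.8% in shDUSP23 and 92.7% and 98.4% in shMock. The gap between the groups was narrower by this count, though the shares still did not overlap. MAPK9 had 7 listed transcripts, so the share over these 3 is not that of the whole gene.

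**Figure D4:**
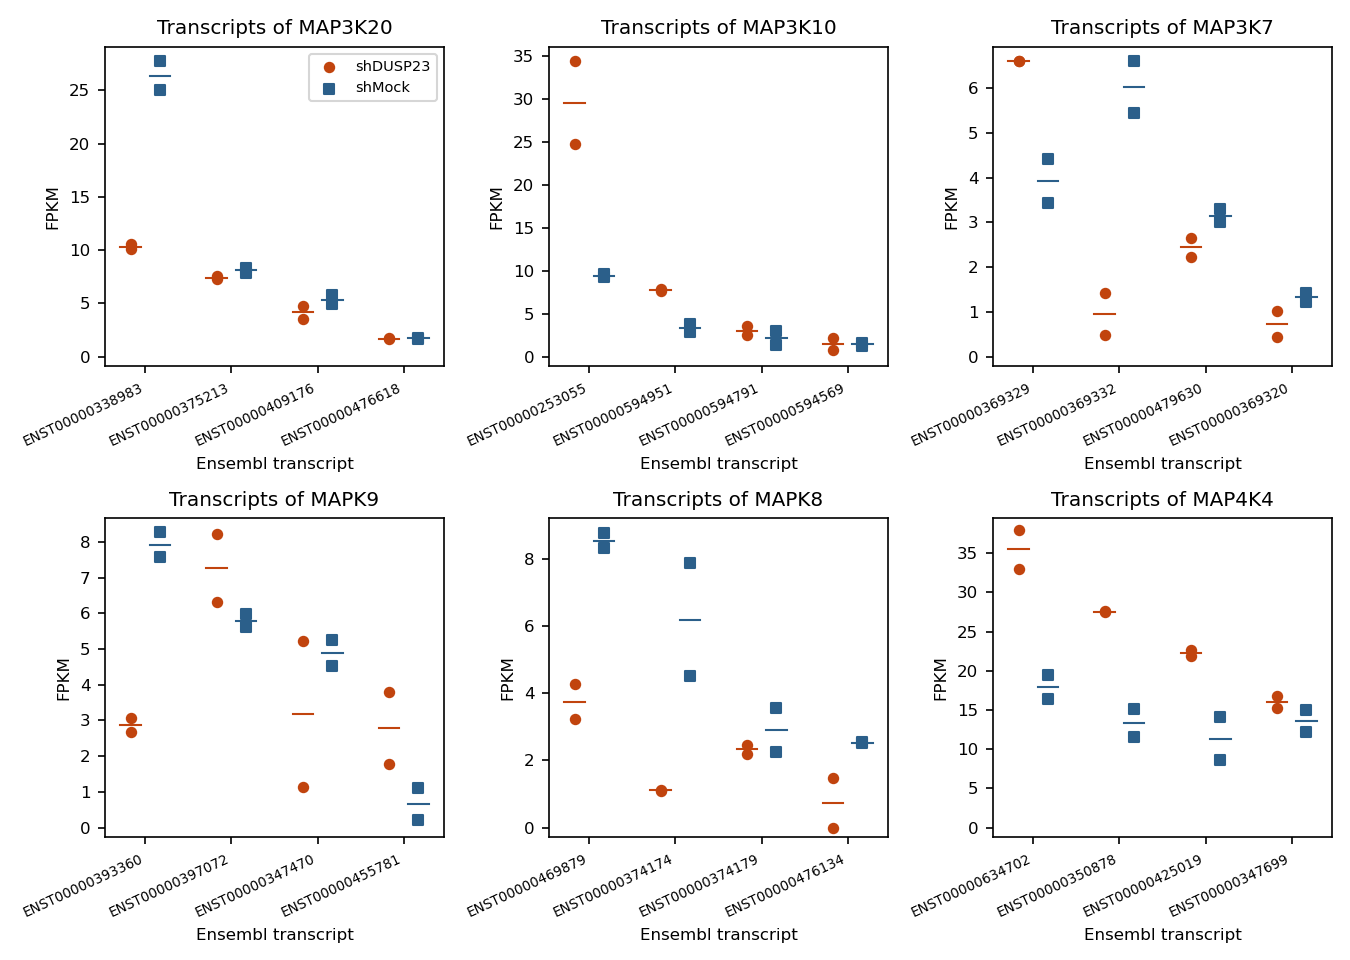
FPKM of the 4 transcripts shown for each of MAP3K20, MAP3K10, MAP3K7, MAPK9, MAPK8 and MAP4K4, by library, with shDUSP23 left of shMock, points for libraries and short lines for group means. The short form of MAP3K20 (ENST00000338983) lies at 10.5 and 10.1 FPKM in shDUSP23 and at 27.8 and 25.002 FPKM in shMock, while its long forms lie close together.

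**Figure D5:**
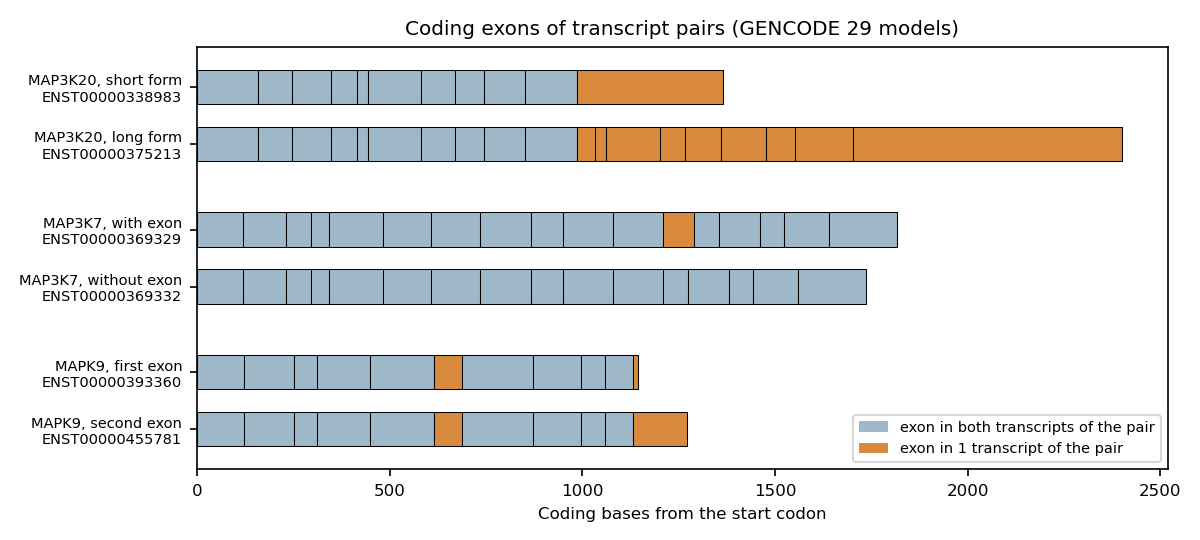
Coding exons of transcript pairs of MAP3K20, MAP3K7 and MAPK9, drawn to scale in coding bases from the start codon, with exons found in 1 transcript of a pair in orange. The MAP3K20 forms share 10 coding exons and then part, the MAP3K7 forms differ by 1 exon, and the MAPK9 transcripts differ in an exon of 72 bases and in the last exon.

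Among other transcripts, ENST00000634702 and ENST00000350878 of MAP4K4 had log2 fold changes of 0.97 (limma adjusted p = 0.0560) and 1.03 (adjusted p = 0.0606), a transcript of MAP2K3 (ENST00000342679) 1.03 (adjusted p = 0.0656) and a transcript of MAP3K14 (ENST00000344686) 1.16 (adjusted p = 0.0566). All 4 are coding transcripts of kinases called higher as genes, and with equal sums each was called. So was the main transcript of MAPK6 (ENST00000261845), with 50.6 and 59.8 FPKM in the shDUSP23 libraries, against 30.9 and 34.4 FPKM in the shMock libraries (log2 fold change 0.75, limma adjusted p = 0.0695, and 1.08, adjusted p = 0.0355 with equal sums). A noncoding transcript of MAPK8 (ENST00000374174), behind much of the fall of MAPK8, had 1.103 and 1.121 FPKM in the shDUSP23 libraries, against 7.89 and 4.50 FPKM in the shMock libraries (log2 fold change -2.01, limma adjusted p = 0.0677).

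The genes around these kinases were listed by role. Above them, RAS proteins, their exchange factors and the RAF kinases gave 3 of 18 tested genes higher and 0 lower (median log2 fold change 0.18). NRAS, a RAS family GTPase, had 37.0 and 37.5 FPKM in shDUSP23 against 25.5 and 24.6 FPKM in shMock (log2 fold change 0.56, SE 0.12, limma adjusted p = 0.00688). RRAS2 rose, with 34.4 and 35.6 FPKM in shDUSP23 against 26.6 and 23.8 FPKM in shMock. The exchange factor RASGRP3, the last of the 3 called, had 1.82 and 1.47 FPKM in shDUSP23 against 0.482 and 0.325 FPKM in shMock. RASGRP3 reached the filter of 1 FPKM only through shDUSP23 (means 1.65 and 0.404 FPKM). The filter thus partly set its call, which is no support for a rise. RASA1, which switches RAS off, had 8.47 and 10.7 FPKM in shDUSP23 against 14.5 and 12.6 FPKM in shMock. It was not called (limma adjusted p = 0.0539). Cascade kinases with other names (RAFs, TAO kinases, MINK1, TNIK and NLK) gave 1 of 8 higher and 1 lower (median 0.32). MINK1, a relative of MAP4K4, rose with 37.2 and 39.0 FPKM in shDUSP23 against 28.5 and 27.5 FPKM in shMock, and NLK, an atypical MAPK, fell with 7.11 and 5.63 FPKM in shDUSP23 against 13.97 and 10.5 FPKM in shMock.

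Scaffolds and adaptors gave 6 of 16 higher and 3 lower (median 0.29). PEA15, which holds ERK in the cytoplasm, rose with 87.2 and 75.6 FPKM in shDUSP23 against 41.9 and 41.0 FPKM in shMock (log2 fold change 0.96, SE 0.12, limma adjusted p = 5.46e-04), and SPAG9, the JNK scaffold JIP4, rose with 295 and 285 FPKM in shDUSP23 against 196 and 159 FPKM in shMock (log2 fold change 0.71, SE 0.13, limma adjusted p = 0.00281). ARRB2, a beta-arrestin that scaffolds ERK and JNK modules, fell with 8.40 and 11.9 FPKM in shDUSP23 against 23.2 and 28.4 FPKM in shMock (log2 fold change -1.32, SE 0.20, limma adjusted p = 0.00105). PEBP1, an inhibitor of RAF, also fell, with 45.6 and 53.1 FPKM in shDUSP23 against 85.3 and 93.2 FPKM in shMock (log2 fold change -0.85, SE 0.13, limma adjusted p = 0.00111). Kinases activated by MAPKs under other names gave 2 of 7 higher and 0 lower (median 0.50), namely RPS6KA4 with 16.1 and 12.9 FPKM in shDUSP23 against 9.59 and 8.87 FPKM in shMock and RPS6KA1 with 7.69 and 10.6 FPKM in shDUSP23 against 5.78 and 4.70 FPKM in shMock, which encode MSK2 and RSK1.

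Classical MAPK phosphatases, which remove the phosphates of the activation loop, gave 7 of 8 higher and 0 lower (median 0.74), with DUSP5 at 212 and 211 FPKM in shDUSP23 against 73.1 and 57.9 FPKM in shMock (log2 fold change 1.69, SE 0.13, limma adjusted p = 7.39e-05). ERK output genes, whose transcription is known to follow ERK activity, gave 6 of 10 higher and 0 lower (median 0.54), with EPHA2 at 65.2 and 72.8 FPKM in shDUSP23 against 29.4 and 24.8 FPKM in shMock (log2 fold change 1.33, SE 0.14, limma adjusted p = 1.97e-04); both lists share DUSP4 and DUSP6. Of the ERK output genes, ETV4, ETV5 (log2 fold change -0.31), PHLDA1 and DUSP4 were not called. The called shares of these lists stand beside 23.1% of all genes higher and 22.2% lower. As the lists were chosen with earlier results of these data known, the counts are a description only. With equal sums 9 of the RAS and RAF genes, 6 of the cascade kinases with other names, 10 scaffolds, 6 MAPK-activated kinases, 8 phosphatases and 9 ERK output genes were higher, and 2 scaffolds were lower. Over all genes 38.4% were higher and 12.3% lower at that scaling.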

How the data were processed

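RNA was sequenced from A549 clusters with shDUSP23 or shMock, 2 libraries each. The authors deposited FPKM per Ensembl transcript (56389 transcripts), with no counts. The submitters' processing notes name GRCh38 with STAR 2.7.1a and DESeq2 1.32.0. Not given in the sources used here are the quantifier with its annotation, the strandedness, and what SUS stands for in the sample titles.

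FPKM were summed per gene ID over listed transcripts. Where a gene's mean reached 1 FPKM, limma 3.58.1 in R 4.3.3 (lmFit, then eBayes with trend) was run on log2(FPKM + 0.5), two-sided, with Benjamini-Hochberg adjustment over all 13691 genes and a threshold of 0.05. Fold changes are shDUSP23 minus shMock on that scale, which understates changes of low genes. Standard errors (SE) rest on n = 2 libraries per group, and an exact permutation test of 2 against 2 cannot go below 0.333. Transcripts were tested alike over all 37453.

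Fragment totals came from the steps between low FPKM values of 2715 genes with 1 transcript whose coordinates matched GENCODE 29, where 99.9% to 100% of values up to 50 fragments were whole within 0.1. A fragment on a 2 kb transcript was worth 0.0118 to 0.0235 FPKM. Sums over several transcripts rest on the authors' assignment of shared reads, so no count model was used for the main test. Limma-voom on recovered fragments, which shares this limit, served as an alternative only. Member transcripts were matched to GENCODE 29 for lengths, exons and sequences (3 of 207 not found, 164 with the same coordinates). Alternatives were other pseudocounts, filters, scalings and eBayes settings, a GC content and length correction, limma-voom on recovered fragments, coding transcripts alone, a replicate block, and leaving out each library.

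Kinases and lists were chosen with earlier results of these data known. Named were the members, with full statistics for called members and for MAPK3, MAPK8, MAPK9, MAPK14, MAP2K1 and MAP2K2, up to 4 members a list with the smallest p, and main transcripts or those parting within a gene. The MAP3K7, MAPK9 and noncoding MAPK8 transcripts were chosen after their values were seen. Some genes are counted but not reported by name here. The procedure was tested on simulated data. Tables and figures were made with matplotlib 3.10.9, pandas 2.3.3 and numpy 2.4.6 in Python 3.11.15.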

Additional observations from a re-analysis of the deposited data

How the results depend on the processing

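No called kinase changed sign under any alternative, and 9 of 19 lost their call in at least 1. Among the named members that were not called, 16 changed sign in at least 1 alternative or with a library left out, with no call there. With quantile normalization MAP2K1 (0.0099) changed sign. With equal sums MAP2K1 (0.31), MAP2K2 (0.14), MAP2K7 (0.30), MAP3K4 (0.17), MAP3K6 (0.23), MAP4K3 (0.24), MAPK14 (0.14), MAPK8IP2 (0.24), MAPK9 (0.064) and MAPKAPK2 (0.023) did. With limma-voom MAP2K1 (0.089), MAP2K7 (0.14), MAP3K6 (0.065), MAP4K3 (0.13), MAPK14 (0.097) and MAPK8IP2 (0.14) did. With median-ratio scaling MAP2K4 (-0.013) did. With coding transcripts alone MAP2K4 (-0.028) and MAP2K7 (0.031) did. With the GC content and length correction (with and without the replicate block) MAP3K12 (-0.14), MAP3K9 (-0.26), MAP4K3 (0.14), MAPK3 (-0.015) and MAPK8IP3 (-0.19) did. With 1 library left out, sign changes were seen in MAP2K1 (-0.14 to 0.11), MAP2K4 (-0.094 to 0.19), MAP2K7 (-0.17 to 0.13), MAP3K4 (-0.28 to 0.031), MAP3K6 (-0.20 to 0.10), MAP3K7CL (-1.34 to 0.47), MAP3K9 (-0.0051 to 0.24), MAP4K3 (-0.18 to 0.00091) and MAPK8IP2 (-0.24 to 0.16). Scaling to equal FPKM sums gave 5279 genes higher and 1693 lower, 4 kinases lower, 5 MAPKs higher, 6 MAP3Ks higher and 2 lower, 0 MAPKAPKs lower, and 2 of the names without a kinase higher. Limma-voom on recovered fragments gave 4 kinases lower, with MAPK8, MAP3K11 and MAPKAPK3 no longer called, 0 MAPKs lower, 5 MAP3Ks higher, 0 MAPKAPKs higher and 0 lower, and 1 name without a kinase higher. Coding transcripts alone gave 0 MAPKs lower. MAP2Ks higher numbered 1 without the filter, with quantile normalization and with the GC content and length correction, alone or with the replicate block. That correction gave 2 MAP2Ks and 2 MAPKAPKs lower, again alone or with the block. MAPKAPKs higher numbered 0 with a pseudocount of 0.1, no filter, median-ratio scaling, no trend, robust eBayes and coding transcripts alone. With a filter of 5 FPKM 0 names without a kinase were lower. The cause was not tested. Leaving out 1 library gave 3464 to 6442 genes changed, 1727 to 3234 higher and 1737 to 3208 lower, the lowest without shMock library 2. It gave 7 to 10 kinases higher and 5 to 7 lower, 2 to 3 MAPKs higher and 0 to 1 lower, 1 MAP2K higher and 1 lower, 2 to 3 MAP3Ks higher and 3 to 4 lower, 2 to 3 MAP4Ks higher and 0 lower, 0 MAPKAPKs higher and 0 to 1 lower, and 0 to 2 names without a kinase lower. The lone library of a group is then assumed to vary like the other group. The replicate block called 6707 genes. Over genes, library 1 minus library 2 correlated with r = 0.05 between the groups. This value cannot show whether same-numbered libraries came from one experiment, and the column headings of same-numbered libraries share a label. With 2 libraries a group no outlier can be told, and small changes of kinases near 1 FPKM are not detectable at this depth.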
